A study of Mus musculus with 48 samples.

Results

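Tumor libraries of 2 kinds were compared, 11 in all: 4 whose titles read WT-GNP-Myc_Gfi1 tumor (replicates 1 to 4) and 7 titled 19251-Gfi1OE, out of 48 libraries in the series. They were taken by title. The first group is labelled genotype WT with granule neural precursor cells as the source, Myc and Gfi1 overexpression, and is called WT-labelled here. The second is labelled p53-/-;p18-/- (loss of Trp53 and Cdkn2c), mouse tumor as the source, with Gfi1 overexpression (Gfi1 OE) in line 19251 of a Myc-driven mouse model of Group 3 medulloblastoma. Another Gfi1 OE library, replicate 5, was left out because 71.6% of its counted lines were unaligned and 2687641 reads fell on genes. A further 6 libraries of line 19251 labelled control, of the same genotype and without the Gfi1 vector, served as a second reference. The protocol text is the same for all groups: cultured tumorsphere cells (floating clusters) received retroviral vectors, were sorted by fluorescence and were placed in the cortex of CD-1 nu/nu mice, which lack mature T cells. Ages are not given in the labels, nor is it stated whether libraries of a group came from separate animals, so p-values measure the spread between these libraries, which may be technical. Genotype, source, tumor line and construct all change together between the groups and cannot be told apart. The leading numbers in the titles also fall in a separate range for the WT-labelled libraries from that of the Gfi1 OE and control libraries. Each WT-labelled title carries a further number of its own. The labels do not say what these numbers stand for.

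Granule neuron precursors are the dividing cells of the outer cerebellum that give rise to granule neurons. They multiply in response to Sonic hedgehog, a ligand that binds the receptor Ptch1, releases the membrane protein Smo and lets Gli transcription factors act. Gli1, Ptch1 and Hhip are themselves targets of the pathway, so their RNA is widely used as its readout. Gfi1 is a zinc-finger repressor that recruits the demethylase Lsd1 (Kdm1a) and histone deacetylases, and it is one of the genes activated in human Group 3 and Group 4 medulloblastoma.

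The WT-labelled libraries did not hold the Gfi1 RNA that their label names. Gfi1 stood at 0.846, 0.438, 0.396 and 0.241 CPM (reads per 1e6 reads on genes, scaled over the 48 libraries) in WT-labelled replicates 1 to 4, from 45 reads in all. It ran from 111 through a median of 175 to 289 CPM in the Gfi1 OE libraries and from 0 to 0.237 CPM in the controls. The WT-labelled values lay below every Gfi1 OE library by a log2 difference of -8.53 ± 0.42 (SE, adjusted p = 4.58e-08, edgeR quasi-likelihood test with Benjamini-Hochberg adjustment, as throughout), and within the 0 to 1.65 CPM seen in the 11 other groups without a Gfi1 vector. Counts per gene cannot separate vector from endogenous Gfi1. Directions below are therefore those of the libraries labelled WT, and none is a reading of Gfi1 in wild-type cells.

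Myc, the other gene in the label, was read at 342, 190, 230 and 199 CPM in the WT-labelled libraries and at 398, 506 and 854 CPM (lowest, median, highest) in the Gfi1 OE libraries. The groups did not overlap, and Myc was lower in the WT-labelled libraries by a log2 difference of -1.17 ± 0.24 (adjusted p = 0.000988). Trp53 RNA was 42.5, 46.9, 42.8 and 36 CPM against 28.6 to 35.8 CPM, and Cdkn2c RNA 12.2 to 14.5 CPM against 6.28 to 11 CPM. Both genes labelled as lost in line 19251 were thus counted in it. Counts per gene may include reads outside a deleted part, so they check neither genotype.

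Across 15243 genes the WT-labelled libraries were closer to every group of another tumor line, 19568, than to line 19251. Their Spearman rho with the mean profiles of the 6 groups of line 19568 was 0.943 to 0.984, highest with the Ezh2 knockout of the second set of libraries of that line at 0.975 to 0.984. It was 0.853 to 0.862 with the Gfi1 OE mean, 0.827 to 0.898 with all 4 groups of line 19251, and 0.882 to 0.893 with line 19554. These are correlations across genes, which are not independent, and all profiles share the same scaling. Single genes were mixed. Gli1 stood at 526 to 543 CPM and Igf2bp1 at 112 to 132 CPM in that Ezh2 knockout group. The WT-labelled libraries held 451 to 506 and 103 to 120 CPM of them. Cdkn1c differed more, at 368 to 503 CPM in the knockout group and 1124 to 1396 CPM in the WT-labelled libraries. Fat2, given below, differed too. Matching genes were not counted.

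**Figure D1:**
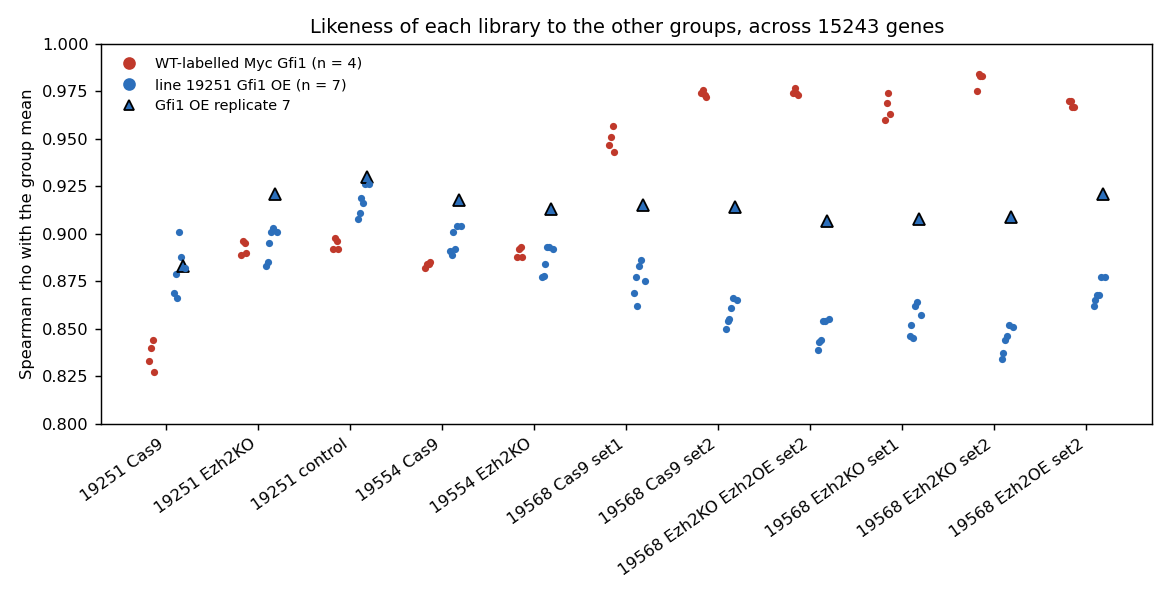
Spearman rho of each WT-labelled (red) and Gfi1 OE (blue, replicate 7 as a triangle) library with the mean log2(CPM + 1) profile of 11 other groups of the series, on a vertical axis that starts at 0.8. The red points lie at 0.943 to 0.984 for the 6 groups of line 19568 and at or below 0.898 elsewhere, while the blue points are highest for the line 19251 control.

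Gfi1 OE replicate 7 stood apart within its group. Its rho with the WT-labelled mean was 0.903 against 0.832 to 0.850 for the other 6 libraries, and its Gfi1 level, 111 CPM, was close to the lowest of the others, 113 CPM. Among genes called at least 4-fold higher in the WT-labelled libraries, replicate 7 was nearer to the WT-labelled mean than to the mean of the other Gfi1 OE libraries for 240 of 1063 (22.6%), and among those called at least 4-fold lower for 191 of 1512 (12.6%). The fit that chose these genes included replicate 7, and the shares were not computed for another library, so they have no reference. Several of the results that rest on it are given with and without it. It also held the top of the Gfi1 OE range for other genes below, among them Sox4, Cdk6, Peg3 and Cspg4.

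Reads on genes ranged from 20510371 to 30753742 in the WT-labelled, 18140316 to 94733334 in the 7 Gfi1 OE and 14626700 to 56480658 in the control libraries. Of 17066 genes tested against Gfi1 OE, 11221 (65.8%) were called, 5500 (32.2%) higher and 5721 (33.5%) lower in the WT-labelled libraries. Differences of at least 4-fold made up 6.23% (higher) and 8.86% (lower). Without replicate 7 the counts of called genes were 5826 and 5890. Against the control, 5656 of 16770 genes (33.7%) were called, 2561 (15.3%) higher and 3095 (18.5%) lower, with 4.58% and 5.78% at least 4-fold, and the lower count came to 1874 to 1991 without WT-labelled replicate 2, 3 or 4. Gene groups are read against these shares, which are large. The 2 comparisons share the WT-labelled libraries, so their values are set side by side only. In bulk tumors, fewer cells of a type and less RNA per cell cannot be told apart.

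Genes of the Sonic hedgehog pathway were mostly higher in the WT-labelled libraries. Of 18 listed genes 17 were tested against Gfi1 OE, and 14 were called higher and 2 lower in the WT-labelled libraries, with a median log2 difference of 2.73 beside -0.04 over all tested genes. Against the control 9 were called higher and 3 lower, with a median of 0.93. The ligand gene Shh was the one not tested.

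The target genes held the highest levels. Gli1, the transcription factor most used as a readout, stood at 479, 478, 506 and 451 CPM in the WT-labelled libraries, at 3.02 to 16.8 CPM in 6 Gfi1 OE libraries and at 245 CPM in replicate 7. No library of the 2 groups overlapped, and the log2 difference was 3.56 ± 1.16 (adjusted p = 0.0177), or 6.09 ± 0.43 without replicate 7. Ptch1, the receptor that holds the pathway off, was read at 992, 889, 905 and 858 CPM, against 62.4 to 77.7 CPM and 485 CPM in replicate 7. Its log2 difference was 2.87 ± 0.59 (adjusted p = 0.00115), and 3.80 ± 0.08 without replicate 7. The control libraries held 0.559 to 41.4 CPM of Gli1 and 30 to 118 CPM of Ptch1, also below every WT-labelled library. Hhip, a decoy that binds the ligand, was 272, 221, 221 and 220 CPM against 0.301 to 5.58 CPM and 92.6 CPM in replicate 7. Its log2 difference was 4.04 (adjusted p = 0.0247), and 7.46 ± 0.71 without replicate 7. Sfrp1, a secreted Wnt antagonist induced by Gli factors, did not follow replicate 7: it was 32.5, 58.1, 48.2 and 51.5 CPM against 0.0546 to 1.97 CPM in all 7, a log2 difference of 6.59 ± 0.68 (adjusted p = 7.27e-06), or 7.76 ± 0.34 without Gfi1 OE replicate 4.

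The cyclins that drive precursor division were higher too. Ccnd2 stood at 521, 507, 484 and 566 CPM against 2.77 to 11 CPM in 6 Gfi1 OE libraries and 116 CPM in replicate 7, a log2 difference of 4.49 ± 0.89 (adjusted p = 0.000901) and 6.06 ± 0.30 without it. Ccnd1 was 268, 257, 242 and 296 CPM against 27.9 to 76.2 CPM, a log2 difference of 2.73 ± 0.23. Both groups stayed apart for both cyclins. The inner components differed by 1.14 to 3.19 on the log2 scale, all called higher against Gfi1 OE. The values were 1.14 ± 0.19 for Smo, 1.58 ± 0.20 for the Gli inhibitor Sufu and 2.09 ± 0.21 for the ciliary kinesin Kif7. Gli2 gave 1.34 ± 0.22 and Gli3 3.19 ± 0.39. Fewer were called against the control, where Sufu (1.53) and Kif7 (0.93) were higher. Smo (0.27, adjusted p = 0.339), Gli2 (0.83, adjusted p = 0.15) and Gli3 (-1.04, adjusted p = 0.189) were not called there. Of the coreceptors that present the ligand, Cdon was called higher against Gfi1 OE by 3.16 ± 0.32. Gas1 was lower, at 1.94, 1.27, 1.62 and 1.64 CPM against 6.5 to 12.6 CPM (log2 -2.51 ± 0.25, adjusted p = 5.43e-06). In the control comparison Cdon was not called (log2 -0.41, adjusted p = 0.494). Boc, another coreceptor, was called higher against Gfi1 OE (log2 1.38) and lower against the control (log2 -1.80). The latter call was lost in 7 of 18 alternatives. Mycn, a hedgehog target in precursors, gave 0.31 ± 0.89 and was not called (adjusted p = 0.773), but it was called higher without replicate 7, where it stood at 5.35 CPM, by 1.91 ± 0.36 (adjusted p = 0.000616), and with DESeq2 over all 7 libraries by 1.72 (adjusted p = 0.000293).

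**Figure D2:**
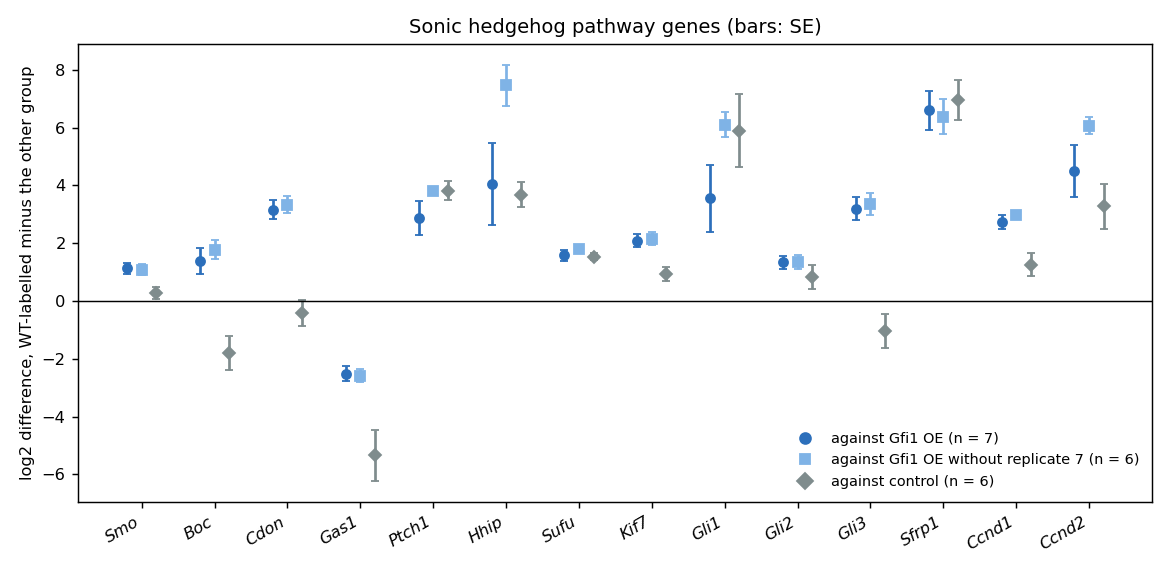
Log2 differences (points) with SE (bars) of 14 hedgehog pathway genes, WT-labelled minus Gfi1 OE (circles), minus Gfi1 OE without replicate 7 (squares) and minus control (diamonds). Gli1, Ptch1, Hhip, Sfrp1 and both cyclins lie above 0 in all 3, Gas1 lies below 0 in all 3, and Boc, Cdon and Gli3 lie above 0 only against Gfi1 OE.

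Atoh1, Nhlh1 and Zic1, factors of the granule lineage, were low or at 0 where the hedgehog readouts were high. Atoh1, which specifies granule precursors, had 0 counts in all 4 WT-labelled libraries and ran from 0.145 through 1.22 to 35.2 CPM in the Gfi1 OE libraries, at least 179-fold higher there against a floor of 3 counts over the WT-labelled group (adjusted p = 0.0199). That bound rested on replicate 7, which held the 35.2 CPM: the other 6 libraries ran from 0.145 to 3.38 CPM, and without it the bound was 36.3-fold (adjusted p = 0.00471). Nhlh1, a helix-loop-helix factor of early postmitotic precursors, was also at 0 in all 4 and 2.4 to 16.7 CPM in Gfi1 OE, at least 275-fold higher. Zic1, a zinc-finger factor of the lineage, was 0.995, 2.02, 4.49 and 2.81 CPM against 25 to 47.9 CPM in Gfi1 OE and 58.2 to 175 CPM in the control, log2 differences of -3.77 ± 0.37 and -5.48 ± 0.52. No WT-labelled library reached the lowest library of either group for these 3 genes. Of the 19 tested members of a precursor list of 20 genes, 6 were called higher and 8 lower against Gfi1 OE, a split close to that of all genes, with a median of -0.21 that turned to 0.20 without replicate 7 (5 higher and 7 lower of 18 tested). Of the 20, 4 had at most 3 reads in the WT-labelled group only and 1 in Gfi1 OE only, so these calls in part describe the low-count filter. Against the control 1 was called higher and 12 lower (median -1.91).

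Other genes of the lineage were present. Meis1, a homeodomain cofactor expressed in precursors, stood between the references, at 20.6, 21.3, 17.9 and 23.1 CPM against 0.916 to 11.8 CPM in Gfi1 OE and 35.4 to 147 CPM in the control. Lmx1a, a rhombic lip factor, was 1.4 to 2.14 CPM against 0 to 0.327 CPM in Gfi1 OE, a log2 difference of 4.64 ± 0.68, or 5.74 ± 0.44 without Gfi1 OE replicate 2. Fat2, a large cadherin of granule cells, was 348, 238, 277 and 181 CPM against 0.0779 to 1.05 CPM in Gfi1 OE and 0.071 to 0.781 CPM in the control, log2 differences of 9.78 ± 0.54 (adjusted p = 9.1e-08) and 9.84 ± 0.55, which came to 10.88 without Gfi1 OE replicate 4 and 10.77 without control replicate 2. It stood at 74.2 to 89.3 CPM in the Ezh2 knockout group of line 19568. Gabra6, the receptor subunit of mature granule neurons, was at 0 in all 4 WT-labelled libraries.

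Genes of neuronal commitment were low. Of 14 tested proneural and neuroendocrine factors, 11 were called lower and 2 higher against Gfi1 OE (median -3.36), and of 22 pan-neuronal genes 15 were called lower and 0 higher (median -2.02), where no pan-neuronal gene was untested. Of the 17 proneural genes listed, 3 had at most 3 reads in the WT-labelled group only and 0 in Gfi1 OE only. Such genes can pass the low-count filter only through Gfi1 OE, so the proneural calls in part describe that choice. Insm1, a zinc-finger repressor of neuroendocrine and newborn neuronal cells, was 0.199, 0, 0.033 and 0.0401 CPM against 15.2, 24.9 and 43.6 CPM (lowest, median, highest), a log2 difference of -8.70 ± 0.63 (adjusted p = 5.15e-07), or -9.88 without WT-labelled replicate 1. Hes6, which promotes neuronal differentiation, was 10.8, 8.59, 8.25 and 9.26 CPM against 77.1 to 102 CPM (log2 -3.20 ± 0.11). Neurod1, a differentiation factor of granule neurons and a marker of some Group 3 tumors, was 0, 0.0876, 0.231 and 0 CPM against 2.07 to 28.5 CPM (log2 -6.64 ± 1.11, but -6.02 without Gfi1 OE replicate 4 and -8.12 without WT-labelled replicate 3). For all 3 factors the groups did not overlap, and the control libraries, at 8.06 to 161 CPM of Insm1, 40.2 to 113 CPM of Hes6 and 0.675 to 63 CPM of Neurod1, also lay above every WT-labelled library.

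Structural genes followed. Elavl3, a neuronal RNA-binding protein, was 1.94, 2.23, 2.58 and 1.08 CPM against 13.3 to 54.6 CPM (log2 -3.80 ± 0.45). Microtubule genes differed by -2.72 ± 0.26 (Mtap2, the neuronal MAP2) and -1.72 ± 0.36 (Tubb3). The adhesion molecule Nrcam was 9.01, 8.5, 11.5 and 3.89 CPM against 72.4 to 147 CPM. The members of the proneural list called higher were Sox4 and Sox11, SRY-box factors of progenitors and immature neurons, and Sox4 stood at 192 to 202 CPM against 9.49 to 118 CPM (log2 2.30 ± 0.52). Summed markers of host cortical excitatory neurons overlapped between the groups, at 15.9 to 57.5 against 22.6 to 136 CPM (two-sided exact permutation test p = 0.127, adjusted over 17 marker lists 0.206). Summed inhibitory neuron markers were 9.01 to 15.7 against 12.4 to 120 CPM (exact p = 0.0182, adjusted 0.0386). Their part in the neuronal differences was not tested.

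**Figure D3:**
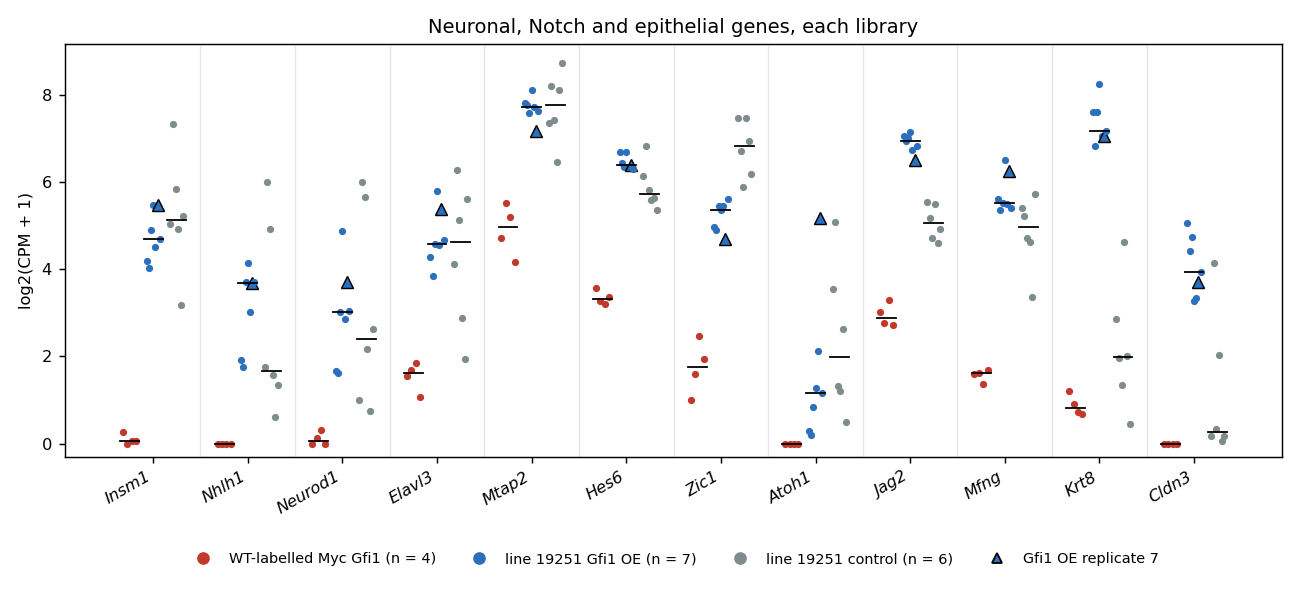
Log2(CPM + 1) of 12 neuronal, precursor, Notch and epithelial genes in each library of the WT-labelled (red), Gfi1 OE (blue, replicate 7 as a triangle) and control (grey) groups, with group medians as black bars. The WT-labelled points lie below the Gfi1 OE points for all 12 genes, at 0 CPM for Nhlh1, Atoh1 and Cldn3.

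Genes of neural stem and glial progenitor cells split. Of 17 tested, 8 were called higher and 5 lower against Gfi1 OE (median 0.73), and 1 higher and 10 lower against the control (median -1.39). Sox9, a factor of glial and stem fate, was 91.2, 72.3, 78.7 and 71.5 CPM against 2.38 to 13.9 CPM in Gfi1 OE and 6.89 to 22.9 CPM in the control (log2 4.13 ± 0.46 and 2.61 ± 0.37). Its 13.9 CPM was replicate 7, and without it the range was 2.38 to 3.43 CPM and the log2 difference 4.77 ± 0.12. Sox2, a stem cell factor, was 16.8 to 24.3 CPM against 2.33 to 7.76 CPM in Gfi1 OE, inside the control range of 9.85 to 133 CPM. The Notch effectors diverged, with Hes1 called higher by 2.71 ± 0.29 and Hes5 lower by a log2 of -5.22 ± 0.51 (-5.94 without WT-labelled replicate 2). Of 21 Notch pathway genes 9 were called higher and 9 lower against Gfi1 OE, beside 32.2% and 33.5% of all genes. The control comparison gave 2 higher and 8 lower (median -0.36), beside 15.3% and 18.5% of all genes. Neither Hes1 (log2 1.18, adjusted p = 0.0831) nor Notch2 (log2 0.49, adjusted p = 0.384) was called there. The ligand Jag2, at 7.07, 5.74, 8.75 and 5.57 CPM against 90.1 to 140 CPM, and the Notch-modifying glycosyltransferase Mfng, at 1.58 to 2.21 CPM against 39.8 to 89.5 CPM, gave log2 differences of -4.08 ± 0.17 and -4.76 ± 0.31, and the receptor Notch2 one of 1.38 ± 0.16.

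Markers of oligodendrocyte precursors were higher than in Gfi1 OE, where all 6 listed genes were called (median 2.26). Against the control 1 of 6 was called higher (median 0.28), and the summed markers, at 287 to 376 CPM, overlapped the control range of 25.9 to 288 CPM. Cspg4 (NG2), their surface proteoglycan, was 192, 208, 220 and 219 CPM against 6.8 to 32.4 CPM, and Pdgfra, the receptor they need to divide, 42.4 to 85.4 CPM against 8.69 to 23.1 CPM, though it was not called against the control (log2 0.81, adjusted p = 0.329). Pericytes also express Cspg4. Of 8 pericyte and smooth muscle markers that include it, 2 were called higher and 5 lower against Gfi1 OE (median -1.35), and the other 7 summed to 117 to 130 CPM against 115 to 253 CPM. Of 7 tested markers of mature oligodendrocytes 2 were called lower and 0 higher (median -0.19), and their sum was 96.8 to 206 against 219 to 498 CPM. The part of these cells in the differences was not tested.

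The cell cycle genes joined higher D cyclins to one very high inhibitor. Cdkn1c (p57), an imprinted inhibitor of cyclin-dependent kinases, stood at 1124, 1140, 1346 and 1396 CPM against 2.69, 6.9 and 19.2 CPM (lowest, median, highest) in Gfi1 OE and 1.32 to 38.1 CPM in the control. The groups lay far apart, with log2 differences of 7.49 ± 0.50 (adjusted p = 2.94e-07) and 6.64 ± 0.77 (7.36 without control replicate 1), and replicate 7, at 7.02 CPM, did not stand out. Cdk6, the kinase that D cyclins activate, was 41.2, 26.7, 30.2 and 32.2 CPM against 0.822 to 6.15 CPM (log2 3.94 ± 0.49). The inhibitor Cdkn2b was also called higher, at 3.63 to 5.04 CPM against 0.551 to 1.04 CPM (log2 2.44), as was Cdkn1a (below). Neither Cdk6 (log2 1.60, adjusted p = 0.156) nor Cdkn2b (log2 1.42, adjusted p = 0.0679) was called against the control. Ccnd3 was higher by 1.52 ± 0.08, and Cdkn1b (p27) lower by a log2 of -0.67 ± 0.09. Of 15 listed genes of this group, all tested, 9 were called higher and 3 lower against Gfi1 OE and 5 and 3 against the control.

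Targets of p53, whose gene is intact in one label and deleted in the other, did not move one way. Of 31 tested, 12 were called higher and 7 lower against Gfi1 OE (median 0.09), beside 32.2% and 33.5% of all genes. Against the control 6 were called higher and 6 lower. Cdkn1a (p21), the classical target, was 17.9, 9.29, 7.83 and 9.18 CPM against 2.13 to 7.62 CPM (log2 1.73 ± 0.36, adjusted p = 0.00136), and the death receptor Tnfrsf10b 15.4 to 17.3 CPM against 0.838 to 2.1 CPM (log2 3.47 ± 0.25). The proapoptotic genes Perp and Bbc3 (PUMA) were lower by log2 values of -3.58 ± 0.33 and -1.29 ± 0.14, and the stress gene Sesn1 by -1.23 ± 0.11. Mdm2, which both answers to and degrades p53, was 56.3, 56.7, 58.1 and 58.6 CPM within the Gfi1 OE range of 51.1 to 74.2 CPM. Its log2 difference of -0.04 ± 0.09 was not called (adjusted p = 0.736). In the control comparison Cdkn1a (log2 1.20, adjusted p = 0.0627), Perp (-2.43, 0.0752) and Bbc3 (-0.46, 0.106) were not called. Tnfrsf10b was called higher there (log2 3.32, adjusted p = 0.00805). Sesn1 was called lower (-1.47) and Mdm2 higher (0.28), calls lost in 9 and 5 of 18 alternatives.

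Fetal growth genes were high in the WT-labelled libraries. Of 19 oncofetal and imprinted growth genes, all tested, 13 were called higher and 2 lower against Gfi1 OE (median 2.96), or 13 and 4 without replicate 7. Of 17 tested against the control, 11 were called higher and 0 lower (median 1.92). Igf2, the paternally expressed growth factor, was 1644, 1509, 1395 and 1355 CPM against 22.1, 32.9 and 95.8 CPM in Gfi1 OE and 0.391 to 13.4 CPM in the control, log2 differences of 5.22 ± 0.38 (adjusted p = 5.27e-07) and 8.65 ± 0.92 (9.59 without control replicate 6). H19, the noncoding RNA next to it, was 5819, 3440, 3882 and 3955 CPM against 290 to 1718 CPM. Peg3, another paternally expressed gene, was 1249 to 1508 CPM against 4.48 to 65.5 CPM (log2 5.89 ± 0.58).

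The RNA-binding proteins Igf2bp1, Igf2bp2 and Igf2bp3, which stabilise fetal transcripts, were close to absent at the RNA level from the Gfi1 OE libraries other than replicate 7. Igf2bp1 was 110, 119, 103 and 120 CPM against 0 to 2.11 CPM in 6 libraries, with a median of 0, and 37.9 CPM in replicate 7. Its log2 difference was 4.31 ± 1.48 (adjusted p = 0.023, but 0.0977 with DESeq2), and 8.20 ± 0.84 without replicate 7. Igf2bp2, at 49.8 to 53.6 CPM against 0.0779 to 0.509 CPM, did not share that pattern (log2 7.42 ± 0.31). Igf2bp3 did, at 84.3 to 104 CPM against 0.0364 to 1.13 CPM and 26.4 CPM in replicate 7 (log2 4.52, and 8.33 ± 0.52 without it). Hmga2, a chromatin protein of fetal cells, was 63.1, 59.1, 53.1 and 53.9 CPM against 0.117 to 0.847 CPM (log2 7.60 ± 0.41). The paralogs that repress let-7 processing parted. Lin28b was 48.6, 40.7, 48.4 and 49 CPM against 10.5 to 37.7 CPM (log2 1.62 ± 0.33). Lin28a was 0.066 to 0.249 CPM against 3.93 to 46.2 CPM (log2 -6.64 ± 0.88, or -5.93 without Gfi1 OE replicate 4). Neither Hmga2 (log2 3.37, adjusted p = 0.0906) nor Lin28b (log2 0.80, adjusted p = 0.557) was called against the control. Control replicate 5 held 30.6 CPM of Hmga2, which was called in 5 of 18 alternatives.

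**Figure D4:**
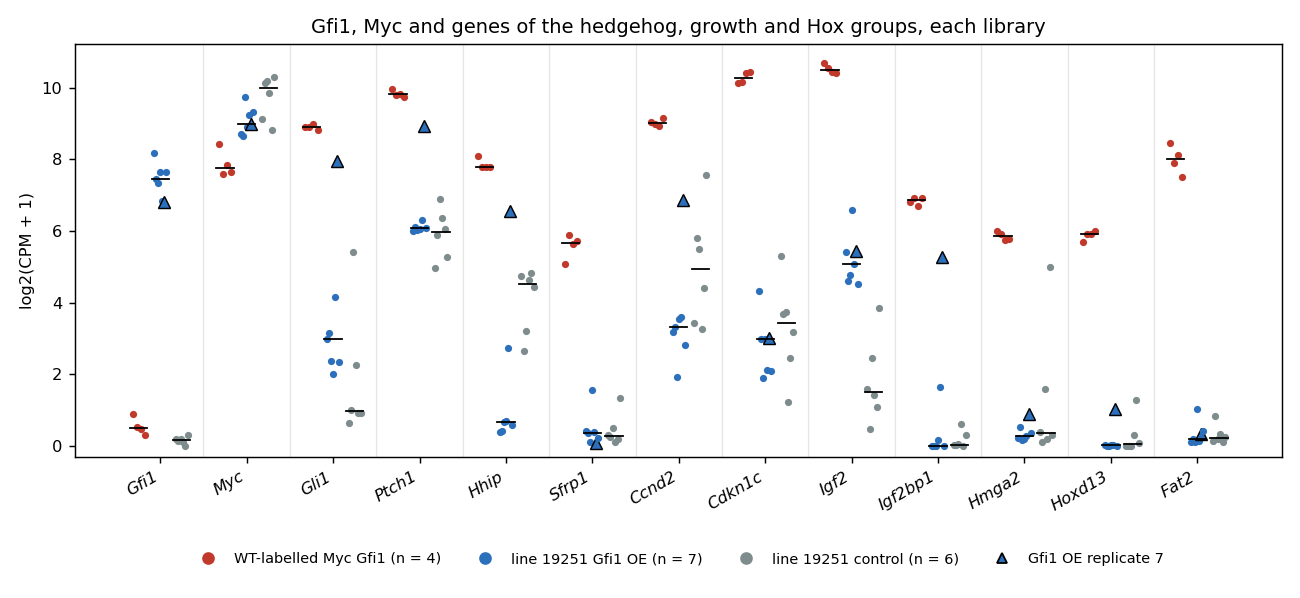
Log2(CPM + 1) of Gfi1, Myc and 11 genes of the hedgehog, cell cycle, growth and Hox groups in each library of the WT-labelled (red), Gfi1 OE (blue, replicate 7 as a triangle) and control (grey) groups, with group medians as black bars. Gfi1 is near 0 in red and grey, Myc is lowest in red, and from Gli1 to Fat2 the red points lie above all others, with replicate 7 between red and blue for Gli1, Ptch1, Hhip, Ccnd2 and Igf2bp1.

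The host transcript of the miR-17 to miR-92 cluster, an oncogenic microRNA cluster that Myc activates, was higher in the WT-labelled libraries, where Myc RNA was lower. Mir17hg, named after its values were seen, was 151, 168, 177 and 165 CPM against 58.5 to 101 CPM in Gfi1 OE and 48.8 to 82.1 CPM in the control, log2 differences of 1.19 ± 0.12 (adjusted p = 7.63e-06) and 1.37 ± 0.13. No library overlapped. The 6 mature microRNAs that this transcript carries are printed below so that their families can be seen. They were not measured here. They come from the RefSeq table (GRCm38.p6, chromosome 14, plus strand), each 5′ to 3′ with its seed, bases 2 to 8, in capitals.
mmu-miR-17-5p: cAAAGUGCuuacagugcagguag
mmu-miR-20a-5p: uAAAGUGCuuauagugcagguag
mmu-miR-18a-5p: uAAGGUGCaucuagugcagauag
mmu-miR-19a-3p: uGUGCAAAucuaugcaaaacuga
mmu-miR-19b-3p: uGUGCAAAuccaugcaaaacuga
mmu-miR-92a-3p: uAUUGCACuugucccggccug
They form 4 families by seed: miR-17 and miR-20a share one, miR-19a and miR-19b share another, and miR-18a and miR-92a each have their own.

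Other Myc-linked genes were mixed. Of 26 ribosome biogenesis targets of Myc, 13 were called lower and 4 higher against Gfi1 OE (median -0.17), beside 33.5% and 32.2% of all genes. Srm and Odc1, enzymes of polyamine synthesis, were lower by log2 values of -0.72 ± 0.10 and -0.84 ± 0.11, the nucleolar protein Ncl by -0.38 ± 0.09, and the Ran cofactor Ranbp1 was higher by 0.87 ± 0.06. Corepressors of Gfi1 were called higher in 8 and lower in 2 of 11 against Gfi1 OE. Kdm1a was 125 to 142 CPM against 85.3 to 104 CPM (log2 0.55 ± 0.06) and Hdac1 75.6 to 90 CPM against 37.2 to 48.9 CPM (log2 0.90 ± 0.08). Against the control 4 corepressors were called higher and 0 lower. Hdac1 was called there (log2 0.79, adjusted p = 0.00322) and Kdm1a was not (log2 0.06, adjusted p = 0.698). Of 20 genes that Gfi1 represses in blood cells, 16 were tested against Gfi1 OE, and 7 were called higher and 4 lower, beside 32.2% and 33.5% of all genes. Against the control 0 of 17 tested were called higher and 6 lower (median -0.92). Of 11 Polycomb repressive complex 2 subunits 7 were called higher and 1 lower (7 and 2 without replicate 7), while Ezh2, its methyltransferase, gave -0.27 ± 0.12 and was not called (adjusted p = 0.0586). That value lay near the threshold: Ezh2 was called lower in 9 of 20 alternatives, among them RLE scaling (-0.28, adjusted p = 0.0453), DESeq2 (-0.28, adjusted p = 0.0343) and the fits without Gfi1 OE replicate 1, 4 or 7 (-0.31, -0.30 and -0.18). Against the control Ezh2 was called lower by a log2 of -0.69 (adjusted p = 0.00371) and kept that call in all 18 alternatives. Of the 11 subunits 1 was called higher and 1 lower there (median 0.02).

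Hox genes, homeodomain factors of trunk and limb patterning that Polycomb keeps silent in forebrain and cerebellum, were counted in the WT-labelled libraries and mostly not in Gfi1 OE. Of 39 genes, 27 had at most 3 reads summed over the 7 Gfi1 OE libraries and 4 had at most 3 over the 4 WT-labelled libraries. There were 23 genes above 3 reads in the WT-labelled group only, and 0 in the Gfi1 OE group only. Only 21 passed the low-count filter, most of them through the group where they were high, so 18 calls higher and 2 lower describe that choice. In the control 26 of the 39 genes had at most 3 reads, but the summed Hox levels ran from 0.888 to 103 CPM there and reached the WT-labelled sums of 95.2 to 121 CPM, and 15 of 24 tested genes were called higher and 6 lower. Hoxd13, a posterior gene of limb and tail, was 51, 59.6, 59.8 and 62.8 CPM against 0 to 0.0239 CPM in 6 Gfi1 OE libraries and 1.04 CPM in replicate 7 (log2 8.58 ± 0.86, adjusted p = 5.71e-06, but 4.67 with adjusted p = 0.0551 with DESeq2, and 11.93 ± 0.20 without replicate 7). Hoxa10 was 4.78, 7.45, 8.75 and 6.42 CPM and Hoxd9 3.45 to 4.38 CPM, with 0 counts in all 7 Gfi1 OE libraries, at least 674-fold and 376-fold higher in the WT-labelled group, though Hoxa10 was not called against the control (log2 2.41, adjusted p = 0.158). Hoxa5, a more anterior gene, was lower, at 0.0438 to 0.429 CPM against 0.273 to 4.17 CPM (log2 -3.35 ± 0.83, or -4.02 without WT-labelled replicate 3), with overlap between the groups.

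Mesenchymal and matrix genes were higher with the Hox genes. Of 21 tested mesenchymal transcription factors 12 were called higher and 1 lower, and of 22 matrix and collagen genes 13 were called higher and 0 lower. Twist2, a helix-loop-helix factor of dermis and bone, was 27.9, 17.9, 21.8 and 28.2 CPM against 0 to 0.168 CPM in 6 Gfi1 OE libraries and 2.27 CPM in replicate 7 (log2 5.98 ± 1.01, and 8.51 ± 0.38 without replicate 7). Foxd1 and Gata4, regulators of kidney stroma and of heart and gut, differed by 5.44 ± 0.81 (6.98 without Gfi1 OE replicate 4) and 6.05 ± 0.46. Col4a1, a basement membrane collagen, was 2163, 2166, 2504 and 2443 CPM against 76.7 to 200 CPM and 608 CPM in replicate 7 (log2 3.65 ± 0.53, and 4.33 ± 0.23 without it). Mmp2, a collagenase, was 251 to 304 CPM against 1.2 to 5.5 CPM in 6 Gfi1 OE libraries and 24.7 CPM in replicate 7 (log2 5.59 ± 0.79, and 6.78 ± 0.37 without it). Summed endothelial markers were 110 to 118 against 72.5 to 127 CPM and fibroblast and meningeal markers 164 to 285 against 101 to 297 CPM, overlapping for both.

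Epithelial genes were mixed. Of 18 listed, 9 passed the low-count filter, and 3 were called higher and 5 lower against Gfi1 OE, while against the control 1 was called higher and 1 lower of 4 tested. Of the 18, 5 had at most 3 reads in the WT-labelled group only and 1 in Gfi1 OE only. Such genes can pass the filter only through the group where they are high, so these calls in part describe that choice. Krt8, a simple epithelial keratin, was 1.29, 0.876, 0.66 and 0.602 CPM against 112, 142 and 302 CPM in Gfi1 OE (log2 -7.64 ± 0.40, adjusted p = 6.59e-08) and 0.355 to 23.8 CPM in the control. Its partner Krt18 was 0.066 to 0.299 CPM against 7.92 to 38.1 CPM. Cldn3, a tight junction protein, had 0 counts in the WT-labelled group and 8.63 to 32.5 CPM in Gfi1 OE, at least 631-fold higher there. The groups were apart for all 3 genes, while the control libraries reached the WT-labelled levels for both keratins. The adhesion molecule Epcam went the other way, at 5.48 to 6.4 CPM against 2.06 to 4.98 CPM (log2 0.93 ± 0.25), and so did the epithelial splicing factor Esrp1.

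Class II antigen presentation was high in the WT-labelled libraries and uneven among them. Of 8 genes, all tested, 7 were called higher and 1, the pseudogene H2-Ea-ps, lower. Ciita, the coactivator that switches these genes on, was 114, 153, 152 and 138 CPM against 5.27 to 17.4 CPM in Gfi1 OE and 0.208 to 1.6 CPM in the control (log2 4.16 ± 0.30, adjusted p = 4.84e-07, and 7.26 ± 0.44). Cd74, the invariant chain, was 356, 117, 162 and 136 CPM against 1.34 to 42.5 CPM, and H2-DMb1, a peptide-loading chain, 144, 15.6, 27.4 and 19.8 CPM against 0.082 to 2.51 CPM. Replicate 1 was the highest WT-labelled library for both. H2-Aa, at 206, 20.5, 37.7 and 17.1 CPM, overlapped the Gfi1 OE range of 1.39 to 39.5 CPM and was no longer called without replicate 1 (log2 3.02 with all libraries, 1.54 and adjusted p = 0.157 without it, and 4.32 without Gfi1 OE replicate 4). Summed microglia and macrophage markers overlapped, at 99 to 147 against 63.8 to 288 CPM (exact p = 0.921). Of 6 B cell markers only Cd79a passed the low-count filter, and the other 5 summed to at most 0.429 CPM in the WT-labelled and 1.11 CPM in the Gfi1 OE libraries.

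Of 26 interferon and class I genes tested, 12 were called lower and 1 higher (median -1.28), with Stat2 and Irf9, 2 subunits of the interferon-activated factor, lower by log2 values of -1.55 ± 0.14 and -1.28 ± 0.18. Without replicate 7, 17 were called lower. Against the control 2 of the 26 were called lower and 0 higher. Neither Stat2 (log2 -0.85, adjusted p = 0.0975) nor Irf9 (log2 -0.45, adjusted p = 0.321) was called there. Of 15 hypoxia response genes 10 were called higher and 1 lower, with the glycolytic enzyme Pgk1 at 319 to 483 CPM against 99.4 to 197 CPM (log2 1.60 ± 0.17) and the collagen hydroxylase P4ha2 at 51.1 to 98.6 CPM against 9.1 to 18.1 CPM. Against the control 2 hypoxia genes were called higher and 1 lower. Cd79a, a B cell receptor chain, was 18.6 to 22.7 CPM beside 24 to 39.9 CPM in Gfi1 OE and 0.143 to 0.462 CPM in the control, a log2 difference of -0.62 ± 0.14 from the former and 6.39 ± 0.31 from the latter.

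**Figure D5:**
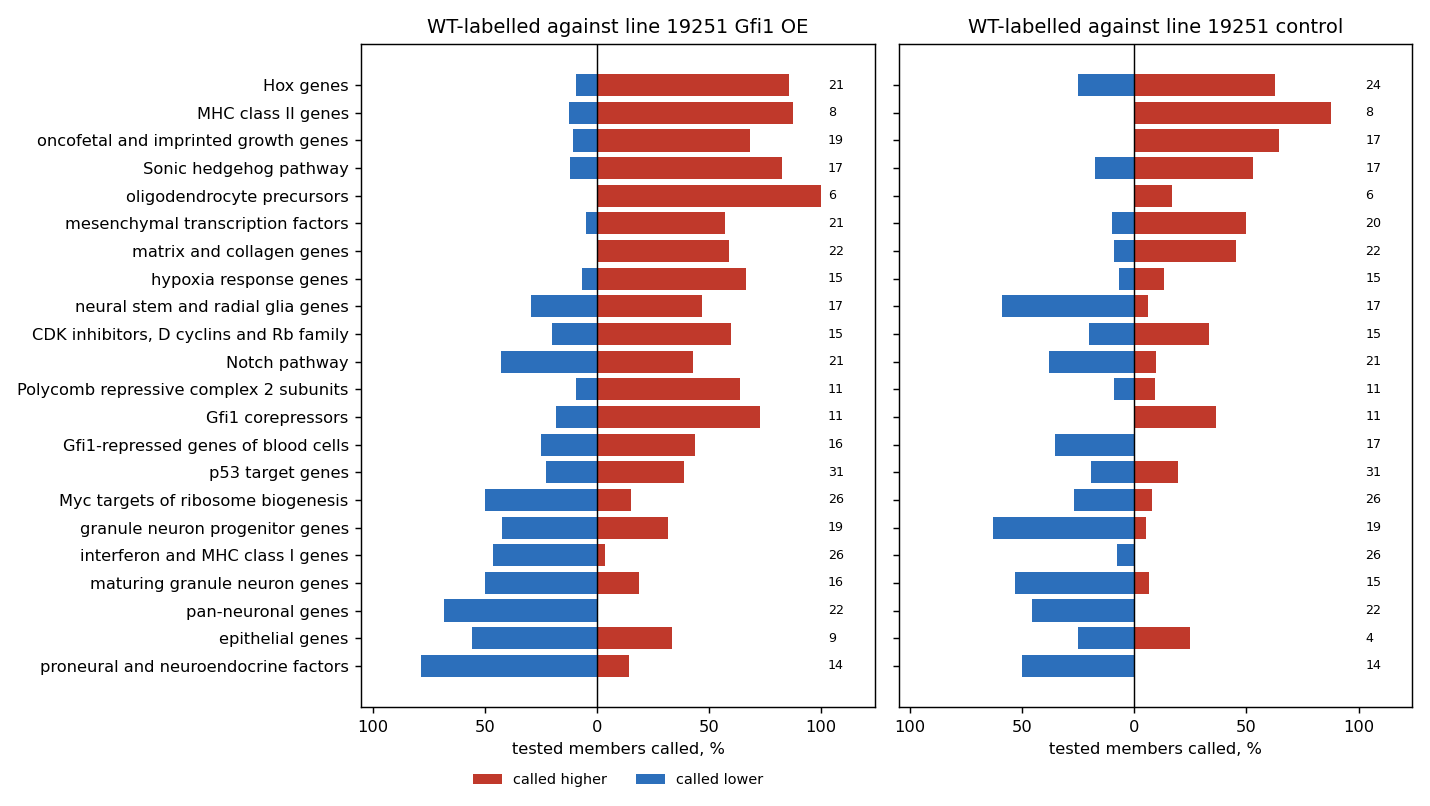
Share of the tested members of 22 gene lists called higher (red, right) or lower (blue, left) in the WT-labelled libraries against Gfi1 OE (left panel) and against control (right panel), with the number tested at the right edge. Of all genes 32.2% were called higher and 33.5% lower in the left panel, and 15.3% and 18.5% in the right. The bars of the Hox list, and in part those of the epithelial, proneural and granule neuron progenitor lists, describe which members passed the low-count filter. More members of the MHC class II, oncofetal and hedgehog lists were called higher than lower in both panels, and more of the proneural and pan-neuronal lists lower than higher.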

How the data were processed

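RNA from 48 libraries was sequenced, per the labels as stranded paired-end total RNA. The deposited files hold raw read counts for 34591 gene symbols per library and 5 lines of reads assigned to no gene, which stayed out of library sizes and tests and made up 23.2% to 33.3% (no feature) and 3.28% to 10.9% (not aligned) of the counted lines in the 17 libraries compared. The submitters' processing notes name CASAVA 1.7, STAR, BWA, HTSeq, limma, R 3.2.3 and the build mm9. The annotation and the strand setting of the counter are not given in the sources used here, so antisense neighbours and near-identical copies (Hox, keratin, class II and olfactory genes among them) may share reads.

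Counts were tested in R 4.3.3 with the quasi-likelihood F-test of edgeR 4.0.16, after TMM scaling and filterByExpr. Adjusted p-values (Benjamini-Hochberg) are over every gene tested, and genes under 0.05 are the called ones. The SE is the log2 difference divided by the square root of F. CPM share 1 TMM scaling over all libraries. Against 0 counts a fold used a floor of 3 counts over the group, which covers counting error only. Likeness used genes averaging 1 CPM or more over the series. Marker sums were compared by two-sided exact permutation over libraries. The fit was tested on simulated data in which few genes changed, equally in both directions. Far more genes were called in the real comparisons, so the simulation does not cover differences this broad.

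The members, gene lists and rule for named genes were chosen with earlier results of these data known. The rule took the 12 largest differences in each direction among calls with 1 CPM or more in the higher group and at most 6 of the called genes in a list. Mir17hg, genes named outside the rule, and marker sums without Cspg4 or Cd79a were chosen after their values were seen. The 8 Gfi1 OE titles all carry replicate number 8, so numbers 1 to 8 follow the order of accession. Of 153 pairs of libraries 0 were identical (lowest chi-square per degree of freedom 7.43). The alternatives were RLE and upper-quartile scaling, DESeq2 1.42.0, limma-voom (limma 3.58.1), no low-count filter, 1 CPM in at least 4 libraries, 3 groups in 1 fit, all 8 Gfi1 OE libraries, thinned counts, a replicate block and each library left out.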

Additional observations from a re-analysis of the deposited data

Results flagged for a closer look

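Among the named genes, 64 of 332 gene-by-group sets of 4 to 7 libraries held 1 library whose gap to the nearest other exceeded Dixon's 95% critical value, where chance gives about 1 in 20 for normally spread values. That rate does not hold for genes near 0. Where all other libraries stand at 0 CPM, any count in 1 library is flagged. This was so for Hoxa9 and Hoxd8 in Gfi1 OE, Hoxd8 and Cldn4 in the control, and Prom2 and Col6a4 in the WT-labelled group. The gap was measured on log2(CPM + 1), a scale chosen after linear CPM had given 100. All values are CPM.

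Gfi1 OE replicate 7 accounted for 20 of these. It was highest for Trp53 35.8, Ezh2 87, Gli1 245, Ptch1 485, Hhip 92.6, Sufu 36.3, Ccnd2 116, Atoh1 35.2, Mycn 5.35, Sox9 13.9, Cdkn1a 7.62, Igf2bp1 37.9, Igf2bp3 26.4, Hoxd13 1.04, Hoxa9 0.0273, Twist2 2.27, Ciita 17.4 and Cspg4 32.4, and lowest for Stat2 10.7 and Irf9 12.4. Gfi1 OE replicate 4 accounted for 13, and was highest for Sfrp1 1.97, Fat2 1.05, Hes1 8.46, Plk3 44.4, Lin28b 37.7, Lin28a 46.2, Hoxd8 0.0195, Foxd1 3.1, Cd74 42.5, H2-Aa 39.5, H2-DMb1 2.51 and H2-Ea-ps 27.2, and lowest for Cdkn2c 6.28. Replicate 2 was highest for Lmx1a 0.327 and replicate 8 highest for Esrp1 0.111.

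In the WT-labelled group, replicate 1 was highest for Hhip 272, Lmx1a 2.14, Perp 2.24, Pmaip1 5.43 and Esrp1 3.19. Replicate 2 was lowest for Tubb3 13 and Lin28b 40.7, replicate 3 was highest for Foxc2 35.6 and Col6a4 0.033, and replicate 4 was highest for Prom2 0.0401, and lowest for Gli2 19.8.

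In the control group, replicate 1 was highest for Tnfrsf10b 6.22 and Col6a4 3.13, and replicate 2 was highest for Fat2 0.781 and Mdm2 54.6. Replicate 3 was highest for Gli1 41.4, and replicate 4 was highest for Pmaip1 8.01, Foxd1 11.5, Krt18 2.89 and Prom2 5.75. Replicate 5 was highest for Hmga2 30.6, Hoxd13 1.42, Hoxd8 0.0355, Cldn4 0.0355 and Cd79a 0.462. Replicate 6 was highest for Sfrp1 1.54, Igf2bp3 16, Lin28a 21.2 and H2-DMb1 1.01.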

How the results depend on the processing

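Against Gfi1 OE, the counts of genes called higher and lower moved by less than 1.5 times under every alternative run, from 5455 and 5746 (RLE) to 4745 and 6441 (upper quartile), 5619 and 5912 (DESeq2), 5647 and 5268 (limma-voom), 4392 and 4845 (3 groups in 1 fit) and 3777 and 4636 (all 8 Gfi1 OE libraries), with 5030 to 5826 and 5218 to 5890 when 1 library was left out. The median difference of all genes was -0.04, -0.13 with upper-quartile scaling and -0.24 without the low-count filter. Against the control, leaving out 1 library gave 1803 to 2826 higher and 1874 to 3312 lower.

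Of 110 named genes called against Gfi1 OE, 100 kept direction and call in every alternative, and of 78 against the control 61 did. The calls lost against Gfi1 OE were Cdkn2c (3 groups, all 8 libraries), Rb1 and Cd79a (all 8), Lin28b (3 groups), Igf2bp1 and Hoxd13 (DESeq2), H2-Ea-ps (limma-voom), Boc and H2-Aa (without WT-labelled replicate 1) and Col6a4 (limma-voom, or without WT-labelled replicate 2, 3 or 4). Calls were gained by Mycn (DESeq2, and without Gfi1 OE replicate 7) and by Ezh2 in 9 of 20 alternatives. The causes were not tested.

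Directions turned only for values that were not called. Against Gfi1 OE, Mycn (0.31) was -0.23 and Pax6 (0.11) -0.52 with all 8 libraries; with 1 library left out they ran from 0.00 to 1.91 and from -0.03 to 0.61, and Mdm2 from -0.07 to 0.02. Against the control, Cdkn2c was 0.04 with limma-voom, Sox4 0.01 with RLE and with DESeq2 and 0.16 with limma-voom, and Hoxa9 1.69 with limma-voom. With 1 library left out they ran from -0.34 to 0.05 (Cdkn2c), -0.15 to 0.23 (Sox4), -0.40 to 0.70 (Hoxa9) and -0.17 to 0.51 (Mycn), and the summed markers, as log2 differences from Gfi1 OE, from -0.12 to 0.24 (microglia), -0.61 to 0.31 (neutrophils) and -0.33 to 0.39 (red blood cells).

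Replicate numbers are shared by the WT-labelled and control titles, but same-numbered libraries correlated by 0.0173, 0.00531, 0.136 and 0.224 in their deviations from the group means over 14796 genes, so the numbers were not taken to pair the libraries. The fit with the replicate block called 2298 genes higher and 2307 lower, and under the block Cdkn2c was 0.11, Sox4 0.28 and Hoxa9 0.42. No paired analysis was possible against Gfi1 OE because its titles all carry 1 number.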
